A study of Mus musculus with 13 samples.

Results

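Levels of 9 genes that write, remove or read DNA methylation were followed in mouse Th17 cells, helper T cells that secrete IL-17. The genes were chosen by symbol and are Dnmt1, Uhrf1, Dnmt3a, Dnmt3b, Tet1, Tet2, Tet3, Tdg and Mbd2. All 9 were found among the 56941 rows of the gene count table, and 8 were among the 14681 genes with enough counts to be tested. Tet1 was the exception. RNA was sequenced from naive spleen CD4 T cells after 72 hours of activation under Th17-polarizing conditions. In 3 libraries the cells carried intact Chaf1b by their label (WT). The remaining 3 came from mice labelled Chaf1bfl/fl;Il17fCre+ (KO), in which Cre is driven by Il17f, so deletion can begin only once a cell switches that gene on. The Chaf1b protein belongs to the CAF-1 chaperone, which places histones on newly replicated DNA, and the comparison asked how its loss affects these cells. The labels give neither the age of the mice nor whether the WT cells carried the Cre, and they call the libraries biological replicates without tying each to its own animal. The p-values thus describe variation among these 6 libraries.

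Libraries held 38099488 to 45232055 counts in WT and 35708879 to 38395131 in KO. WT replicate 1 stood apart from the other WT libraries, with a chi-square per degree of freedom of 18.8 and 33.1 against WT replicates 2 and 3, where those differed from each other by 7.54 and the KO libraries among themselves by 4.19 to 4.53. The targeted gene did not check the labels. Chaf1b was at 13.2, 11.4 and 11.5 counts scaled to library size (CPM) in WT and 16.3, 14.9 and 13.5 CPM in the libraries labelled KO, counted over all exons. Every KO value lay above every WT value, the opposite of a lower level, without passing (edgeR adjusted p = 0.130). Which exons were to be deleted is not given in the sources used here. WT and KO below therefore name the labels, on which all directions rest. The T cell markers Cd4, Cd3e, Cd3d, Cd3g, Trac and Cd28 summed to 887 to 1084 CPM in WT and 839 to 870.3 CPM in KO. None of the 6 passed the threshold in the edgeR fit of all libraries, where 3 had an unadjusted p under 0.05 and Cd4 an adjusted p of 0.0504. DESeq2, edgeR with no filter on low counts and edgeR without WT replicate 1 each called 1 higher and 2 lower. Of 9 Th17 markers, 5 passed as lower in KO and none passed as higher. The count was 0 without KO replicate 2, 2 without KO replicate 1 or 3, and 8 without WT replicate 3 or with DESeq2. Their sum ran from 254 to 362 CPM in WT and from 142 to 147 CPM in KO. Il22 alone went the other way, from a mean of 0.288 CPM in WT to 0.754 CPM in KO, without passing (edgeR adjusted p = 0.0993).

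DNA methylation marks cytosines that precede a guanine. Dnmt1, brought to newly replicated DNA by Uhrf1, copies the mark onto the new strand, while Dnmt3a and Dnmt3b place it on unmethylated sites. The Tet enzymes oxidise the methyl group, Tdg cuts out the oxidised base for repair, and Mbd2 binds methylated DNA and recruits repressors. In T cells this system is known for silencing cytokine genes of other helper lineages and for shaping Foxp3 expression.

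The genes that copy methylation at replication were higher in the libraries labelled KO, and Tet3 was lower. Uhrf1 rose by 32.0% and Dnmt1 by 25.5%, and Tet3 fell by 15.8%. Dnmt3a, Dnmt3b, Tet2, Tdg and Mbd2 did not pass the threshold. These 3 of 8 tested genes compare with 6.39% of all tested genes, of which 3.92% were higher and 2.47% lower in KO. Here and below, adjusted p-values come from the edgeR quasi-likelihood test, adjusted over all genes by the Benjamini-Hochberg method, with a threshold of 0.05. All 3 KO values lay on the same side of all 3 WT values for 5 of the 8 genes, and for 26.8% of all tested genes. The median log2 fold change (KO over WT) of the 8 was -0.02, beside -0.01 over all genes tested. The genes were picked by function with results of these data already known, so no test was made over the group. Without WT replicate 1 the count was 6 of 8, when 19.7% of all genes passed.

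**Figure D1:**
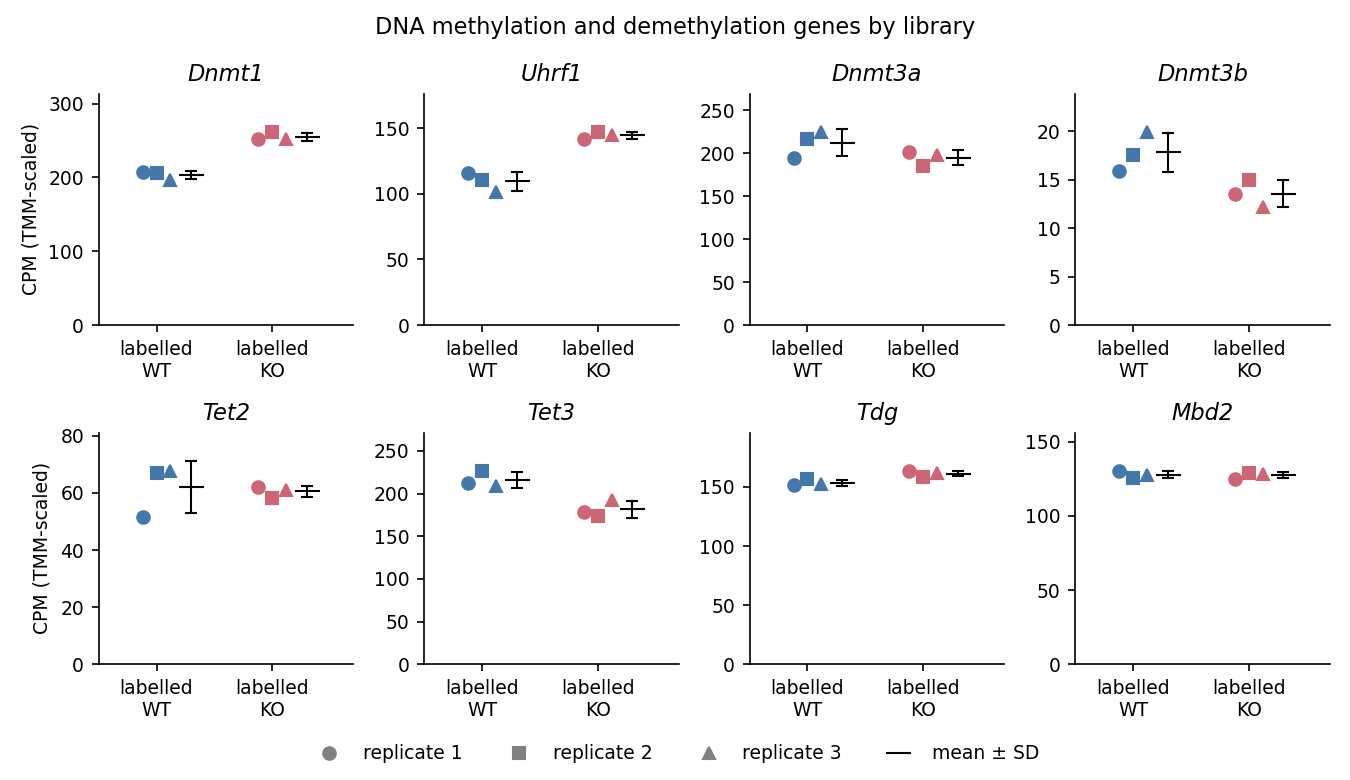
Level of each tested gene in CPM scaled by TMM factors (vertical axis, from 0) in the 3 libraries labelled WT (blue) and the 3 labelled KO (red), with replicates as symbols and the mean ± SD in black. All KO points lie above all WT points for Dnmt1 (252 to 261 against 197 to 207 CPM) and Uhrf1, and below them for Tet3 and Dnmt3b.

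Dnmt1 (ENSMUSG00000004099.17), the maintenance methyltransferase, was at 207, 206 and 197 CPM in WT and at 252, 261 and 252 CPM in the libraries labelled KO. The 3 KO values lay above every WT value, and the gap between the groups was wider than the spread within either. The means were 203 ± 5.38 and 255 ± 5.36 CPM (SD, n = 3), from 7897 to 8973 counts per WT library and 8850 to 9967 per KO library. On the log2 scale KO exceeded WT by 0.33 ± 0.05 (SE; 95% interval 0.23 to 0.43, adjusted p = 0.00177). In bulk RNA, more cells of a type and more RNA per cell cannot be told apart.

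Uhrf1 (ENSMUSG00000001228.15), which reads hemimethylated DNA behind the replication fork and recruits Dnmt1 there, moved the same way. Its level was 116, 111 and 101 CPM in WT and 142, 147 and 145 CPM in KO, again with no overlap. The means were 109 ± 7.36 and 144 ± 2.58 CPM (SD, n = 3), and the log2 fold change was 0.40 ± 0.06 (95% interval 0.28 to 0.53, adjusted p = 0.00203). Both calls held in each of the 6 fits that left out a library and in each of 9 other normalizations, filters and tests, with an adjusted p of at most 0.0245 for Dnmt1 and 0.0237 for Uhrf1. Within a library, the ratio of Uhrf1 to Dnmt1 counts was 0.560, 0.538 and 0.515 in WT and 0.562, 0.562 and 0.574 in KO. The groups were apart by 0.07 on the log2 scale, with WT replicate 1 next to the KO values, and by 0.04 without WT replicate 3 and 0.10 without WT replicate 1.

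Genes of S phase, the part of the cell cycle in which DNA is copied, were higher beside these genes. Of 25 listed S phase genes 19 passed as higher and none as lower, beside 3.92% and 2.47% of all tested genes. Their median log2 fold change was 0.39, so that Dnmt1 and Uhrf1 lay close to the middle of that list. The list summed to 1711 to 1768 CPM in WT and 2214 to 2253 CPM in KO. Measured against this sum, Dnmt1 counts stood at 0.121, 0.116 and 0.114 in WT and 0.112, 0.118 and 0.114 in KO, and the groups overlapped (log2 difference -0.03, two-sided exact permutation p adjusted over 7 ratios = 0.583). Uhrf1 counts stood at 0.0678, 0.0627 and 0.0584 of the sum in WT and 0.0629, 0.0664 and 0.0652 in KO (log2 difference 0.04, exact permutation p adjusted = 0.600). With 3 libraries a group the unadjusted p cannot go below 0.1, so this test could not have passed, and the overlapping values are a description. None of 17 genes of G2 and mitosis passed in the edgeR fit of all libraries (1 with DESeq2; 6 at an unadjusted p under 0.05). Without WT replicate 1, 1 was higher and 2 lower, with quality weights 3 and 2, and with no filter on low counts 1 was lower. Their sum overlapped between the groups (1539 to 1696 CPM in WT, 1657 to 1697 in KO). The S phase count ran from 11 to 21 of 25 genes over the 6 fits with a library left out. It was 21, 13 and 19 without WT replicates 1, 2 and 3. Without KO replicates 1, 2 and 3 it was 11, 12 and 11.

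The promoters of the 3 called genes, Dnmt1, Uhrf1 and Tet3, are shown. E2F forms were searched because many S phase genes are known targets of E2F factors, a choice made once these changes were known. Windows from 250 bases before to 50 bases after each annotated start (RefSeq, build GRCm38.p6) were matched by symbol. They were searched for 8 of the 9 genes, 13 windows in all. Mbd2 was left out, so whether its promoter holds a match was not tested. The E2F forms TTTCCCGC, TTTGGCGC, TTTCGCGC and TTTGCCGC were searched on both strands. Capitals mark these forms in the 250 bases before the start, printed 5′ to 3′ along the gene's strand. The Tet3 window holds none of them.
Dnmt1, annotated start 3, chr9:20952624-20952873, minus strand: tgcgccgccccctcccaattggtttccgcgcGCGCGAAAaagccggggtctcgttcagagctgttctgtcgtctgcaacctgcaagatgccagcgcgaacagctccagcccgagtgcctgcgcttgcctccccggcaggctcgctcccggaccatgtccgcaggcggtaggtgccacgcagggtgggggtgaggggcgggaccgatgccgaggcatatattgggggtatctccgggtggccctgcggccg
Uhrf1, annotated start 2, chr17:56304063-56304312, plus strand: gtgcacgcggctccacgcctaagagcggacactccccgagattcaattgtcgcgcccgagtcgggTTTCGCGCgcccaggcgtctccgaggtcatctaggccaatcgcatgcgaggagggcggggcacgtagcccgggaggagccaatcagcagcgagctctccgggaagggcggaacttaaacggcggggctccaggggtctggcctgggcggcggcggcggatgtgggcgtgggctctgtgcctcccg
Tet3, chr6:83441679-83441928, minus strand: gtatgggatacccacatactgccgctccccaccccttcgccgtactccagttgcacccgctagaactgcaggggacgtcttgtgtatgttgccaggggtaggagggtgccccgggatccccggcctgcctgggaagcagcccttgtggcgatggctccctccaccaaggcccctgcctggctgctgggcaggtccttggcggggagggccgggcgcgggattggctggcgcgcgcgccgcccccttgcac
The Dnmt1 window held another match, TTTGGCGC, from 33 bases after the start. Dnmt1 and Uhrf1 were the 2 of 8 genes with a match in any window, where 2.61% of all 27025 genes with a window had one. By window the share was 2.26% of 32851, or 4.27% of the 2812 windows with at least 33 CG dinucleotides, the number that each of these windows holds. The other annotated starts of Dnmt1 and of Uhrf1 had no match, and the counts do not tell which start was used. The shorter CCAAT box (CCAAT, both strands), present in 37.4% of all windows, was found 3 times in this Dnmt1 window and 2 times in this Uhrf1 window, and once each for Tet3 and Tdg. In the Dnmt1 window 2 of the CCAAT matches overlapped each other, and no E2F match overlapped another motif. These matches describe letters in the windows and were not read as binding. Promoters of the S phase list were not compared, and a part of E2F factors in these changes was not tested.

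**Figure D2:**
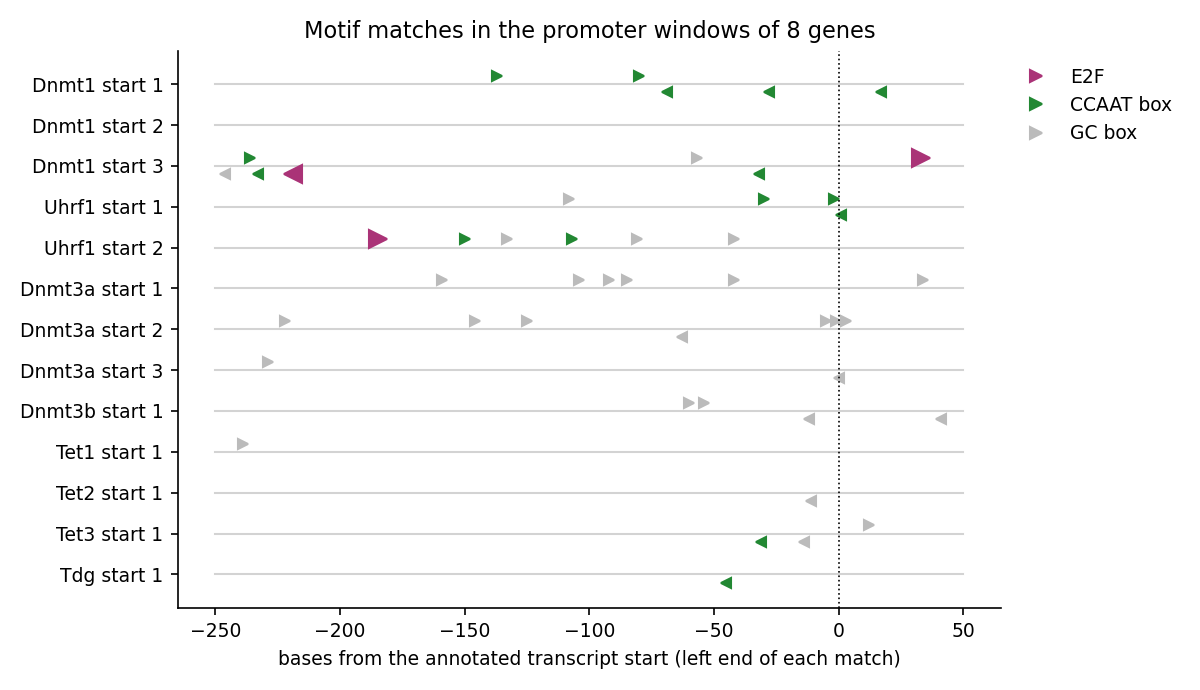
Matches to the E2F forms (purple), the CCAAT box (green) and the GC box GGGCGG (grey) by distance in bases from each annotated start (dotted line), for 13 windows of 8 genes. Triangles point right for the gene's strand and left for the other, and E2F forms appear in the Dnmt1 window of start 3 and the Uhrf1 window of start 2 alone.

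The genes that place new methylation had lower fitted values that did not pass. Dnmt3b (ENSMUSG00000027478.16) was at 15.9, 17.6 and 19.9 CPM in WT and 13.5, 15.0 and 12.2 CPM in KO, and every KO value lay below every WT value. The log2 fold change of -0.39 ± 0.11 missed the threshold (95% interval -0.64 to -0.14, adjusted p = 0.0687). Dnmt3b passed without WT replicate 1 (-0.47, adjusted p = 0.00140), with DESeq2 (0.0229), with no filter on low counts (0.00951) and with quality weights per library (0.00542), and its adjusted p over all 15 other settings ran from 0.00140 to 0.254. It rested on 448 to 906 counts a library, the fewest of the tested genes here.

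Dnmt3a (ENSMUSG00000020661.16), mutated in human T cell and myeloid cancers, was at 194, 217 and 225 CPM in WT and 201, 185 and 198 CPM in KO. WT replicate 1 lay inside the KO range and the other WT libraries above it. The log2 fold change was -0.12 ± 0.06 (95% interval -0.26 to 0.01, adjusted p = 0.276). Without WT replicate 1 it was -0.18 and passed (adjusted p = 0.00224, with a range from 0.00224 to 0.617 over all 15 other settings). The ratio of Dnmt1 to Dnmt3a counts was 1.06, 0.948 and 0.878 in WT and 1.26, 1.42 and 1.27 in KO, higher in each KO library than in each WT library. The mean log2 ratio differed by 0.45, with an SD of 0.14 in WT and 0.10 in KO (n = 3). The ratio of Dnmt3b to Dnmt3a counts overlapped between groups, at 0.0809 to 0.0886 in WT and 0.0613 to 0.0812 in KO. Exon lengths are not in the table, so levels of different genes were not compared and the ratios are read only across libraries.

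Tet3 (ENSMUSG00000034832.16), one of the oxidising enzymes that start demethylation, was at 213, 226 and 208 CPM in WT and 179, 174 and 193 CPM in the libraries labelled KO. All KO values lay below all WT values, with KO replicate 3 nearest to WT. The means were 216 ± 9.33 and 182 ± 9.89 CPM (SD, n = 3), and the log2 fold change was -0.25 ± 0.06 (95% interval -0.37 to -0.13, adjusted p = 0.0225). The direction held in all 15 other settings, while 3 omissions ended the call: WT replicate 2 (adjusted p = 0.131), KO replicate 1 (0.133) and KO replicate 2 (0.139). The adjusted p ran from 1.08e-04 to 0.139 over those settings.

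Tet2 (ENSMUSG00000040943.13), often mutated in human blood cancers, was at 51.5, 66.9 and 67.7 CPM in WT and 62.1, 58.3 and 61.2 CPM in KO. WT replicate 1 was the lowest of all 6 libraries and the other WT libraries the highest. The log2 fold change was -0.04 ± 0.09 (95% interval -0.24 to 0.17, adjusted p = 0.877). It was -0.15 without WT replicate 1 (adjusted p = 0.0466) and turned to 0.02 and 0.03 without WT replicates 2 and 3, with an adjusted p from 0.0466 to 0.972 over all 15 other settings. Tet2 thus had no stable direction in these libraries.

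Tet1 was close to the limit of detection. Its WT libraries held 6, 2 and 4 counts and its KO libraries 6, 12 and 2, too few to enter the test. Summed over the group this was 12 counts in WT and 20 in KO. All 6 counts were even, so they rest on fewer fragments, and no counting interval is given. With no filter on low counts the log2 fold change had a 95% interval from -1.08 to 2.86 (adjusted p = 0.708), so neither a rise nor a fall was detectable at this depth.

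Tdg (ENSMUSG00000034674.19), the glycosylase that removes oxidised methylcytosine, was at 151, 156 and 153 CPM in WT and 163, 159 and 162 CPM in KO. The KO values were all above the WT values, yet by only 0.07 ± 0.05 on the log2 scale (95% interval -0.03 to 0.17, adjusted p = 0.416). Mbd2 (ENSMUSG00000024513.17), the reader of the mark, was at 130, 126 and 127 CPM in WT and 125, 129 and 128 CPM in KO. The groups overlapped fully and the 95% interval of its log2 fold change ran from -0.11 to 0.10 (adjusted p = 0.972). Mbd2 and Tdg varied least between libraries of a group, with coefficients of variation from 1.52% to 1.77%.

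**Figure D3:**
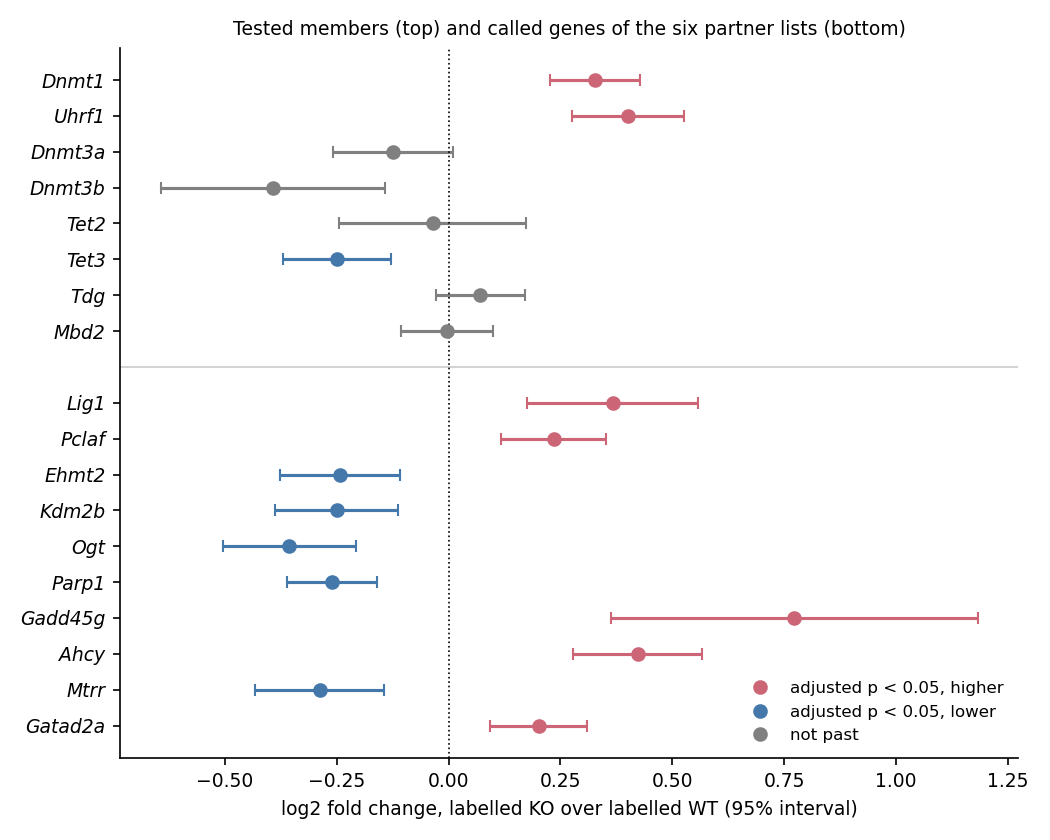
Log2 fold change, libraries labelled KO over libraries labelled WT, with its 95% interval (horizontal axis) for the 8 tested genes (top) and for the 10 called genes of the 6 lists of related genes (bottom). Red marks genes past an adjusted p of 0.05 as higher, blue as lower and grey those not past it; Uhrf1 (0.40) and Dnmt1 (0.33) lie to the right of 0 and Tet3 (-0.25) to the left.

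Counts of methylating over demethylating enzymes were compared as a ratio within each library. Summed Dnmt1, Dnmt3a and Dnmt3b counts over summed Tet1, Tet2 and Tet3 counts were 1.58, 1.50 and 1.60 in WT and 1.93, 1.99 and 1.82 in KO. Every KO library was above every WT library, by 0.30 on the log2 scale, and between 0.27 and 0.33 with any 1 library left out. The two-sided exact permutation test gave p = 0.1, the smallest that 3 against 3 libraries allow, and 0.233 adjusted over the 7 ratios. The same values of p were found for Dnmt1 to Dnmt3a and Uhrf1 to Dnmt1. The ratio of Tet2 to Tet3 overlapped, at 0.242 to 0.325 in WT and 0.318 to 0.347 in KO, with WT replicate 1 the lowest. The sums mix genes of different length, so this ratio weights long transcripts more. Among the summed genes only Dnmt1 (higher) and Tet3 (lower) passed in the edgeR fit of all libraries. Dnmt3a (-0.12) and Dnmt3b (-0.39) had lower fitted log2 values, so the ratio does not show a rise of each methylating enzyme.

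**Figure D4:**
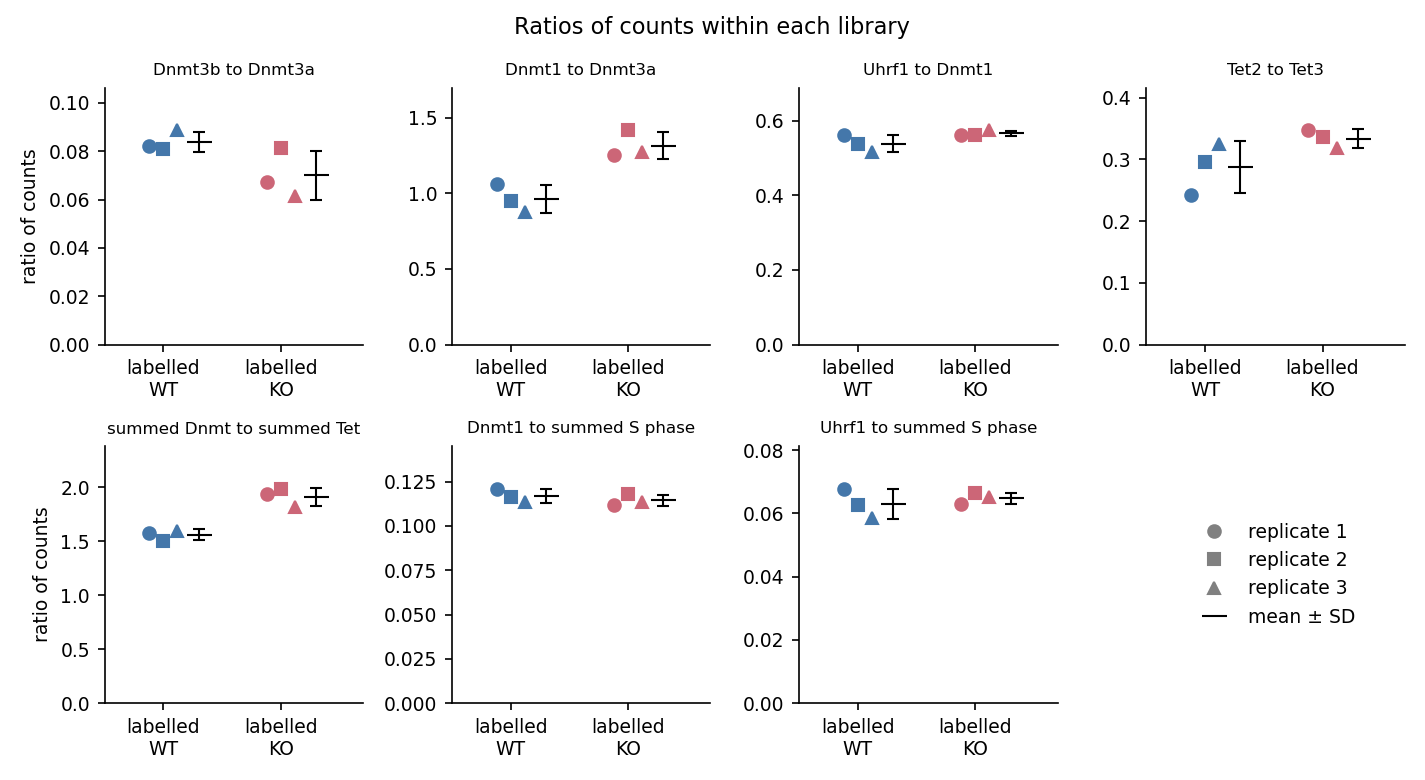
Ratios of raw counts within each library (vertical axis, from 0) for the 7 ratios, with WT libraries in blue, KO libraries in red and the mean ± SD in black. Dnmt1 to Dnmt3a, summed Dnmt to summed Tet and, narrowly, Uhrf1 to Dnmt1 separate the groups, while Dnmt1 and Uhrf1 over the S phase sum overlap.

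Genes that work with these enzymes were called in both directions. The counts of each list stand beside 6.39% of all tested genes called and were not tested against that share. It was 11.1% for the Tet partners and 8.33% for the NuRD genes named below. Partners of the methyltransferases passed in 4 of 10 cases, and in 0 of 10 with WT replicate 2 or any KO library left out. The ligase gene Lig1 (0.37 ± 0.09) and Pclaf (0.24 ± 0.05), both of the replication fork where Uhrf1 acts, rose. Ehmt2, a histone methyltransferase, fell by 0.24 and Kdm2b, which binds unmethylated CG islands, by 0.25 on the log2 scale. The remodeller Hells had a fitted value of 0.28 ± 0.13 without passing, and its known partner Cdca7 one of -0.20 ± 0.06 (adjusted p = 0.238 and 0.0784). Dppa3, an inhibitor of Uhrf1, had no counts. The median of the list was -0.02.

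Among partners of the Tet enzymes Ogt alone passed, 1 of 9. It encodes the transferase that adds sugar to proteins and binds Tet2 and Tet3, and went from 400.5 ± 13.1 to 313 ± 31.5 CPM (SD, n = 3; log2 fold change -0.36 ± 0.07, adjusted p = 0.0107). Of 14 genes that repair excised bases, Parp1 fell by 0.26 and the stress gene Gadd45g rose by 0.77 ± 0.19 from a low level (3.63 ± 0.963 to 6.21 ± 0.256 CPM). The base excision genes Apex1 (-0.02 ± 0.08), Lig3 (0.01 ± 0.06) and Xrcc1 (0.09 ± 0.06) lay near 0 and did not pass. The medians were -0.05 and 0.05.

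Of 12 genes that make and recycle the methyl donor, Ahcy, which clears the product that inhibits methyltransferases, rose by 0.42 ± 0.07 on the log2 scale, with 193 ± 18.9 CPM in WT and 258 ± 5.09 in KO (adjusted p = 0.00317). Mtrr, which keeps methionine synthase active, fell by 0.29 on the log2 scale. Mat2a, which makes the donor itself, was at -0.30 ± 0.08 without passing (adjusted p = 0.0604). None of 10 other readers of the mark passed in the edgeR fit of all libraries or in DESeq2, and 3 had an unadjusted p under 0.05. The 3 with the highest CPM, Mbd3, Uhrf2 and Mbd1, were at 0.02 ± 0.05, -0.08 ± 0.05 and -0.07 ± 0.07, and 2 readers passed as lower with no filter on low counts, 3 with quality weights and 1 without WT replicate 1. In the NuRD repressor complex that Mbd2 joins, 1 of 12 genes passed, Gatad2a (0.20 ± 0.05), and its remodelling ATPase Chd4 was at 0.05 ± 0.04. Of the 12 genes 7 had an unadjusted p under 0.05 in edgeR. Without WT replicate 1, 4 were higher and 1 lower, and with quality weights 5 and 2. None passed with library totals, with the replicate block, or without WT replicate 2 or any KO library. The medians of these 3 lists were 0.03, -0.10 and 0.06. Of the 10 calls in these 6 lists, that of Ahcy was kept whichever library was left out and that of Ogt was lost without WT replicate 2 (adjusted p = 0.0662). Parp1 missed the threshold with each KO library left out (up to 0.0670). Lig1, Pclaf, Ehmt2, Kdm2b and Mtrr also missed it with WT replicate 2 left out (up to 0.195). Of these 6 fits, Gadd45g and Gatad2a passed in the one without WT replicate 1 (up to 0.166 in the others).

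Genes with the most similar course over the 6 libraries were found by Pearson's r of log2 CPM among 9655 genes of at least 5 CPM, as a description with no test. For Dnmt1 they were Egr1 (r = 0.997), Myo1f (0.996) and Nbeal2 (0.996). Bcr (0.999) and Ptpn13 (0.997) are given for Uhrf1. For Tet3 they were Kdm2b (0.992), Slc9a8 (0.992) and Atp11a (0.991). With 6 libraries in 2 groups, these values mostly follow the difference between the groups and share its libraries. None of the genes named here for Dnmt1 or Uhrf1 was on the S phase list. With so few of 9655 genes named, this does not show whether Dnmt1 or Uhrf1 followed the S phase genes.

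**Figure D5:**
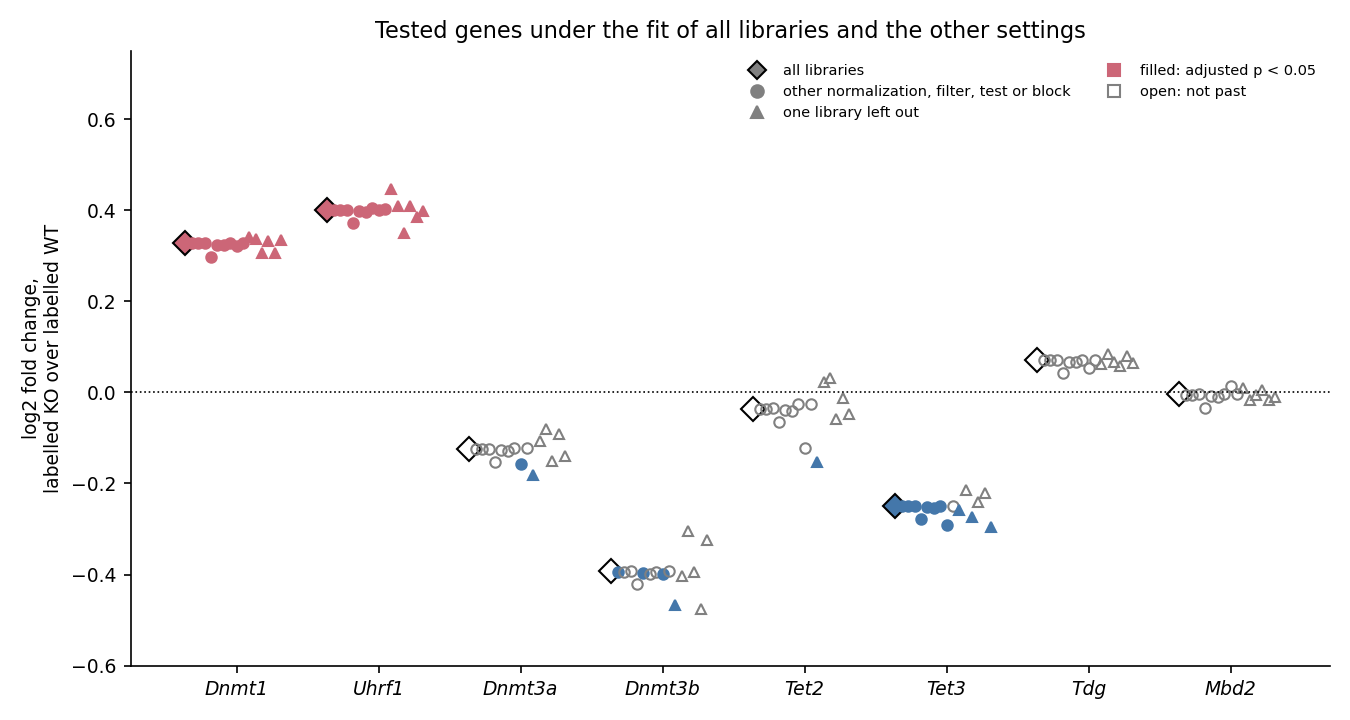
Log2 fold change of each tested gene (vertical axis) in the fit of all 6 libraries (diamonds), 9 other normalizations, filters, tests or a block (circles) and 6 fits with 1 library left out (triangles); filled symbols passed an adjusted p of 0.05. Dnmt1 and Uhrf1 are filled throughout, Tet3 has 4 open symbols, and Dnmt3a, Dnmt3b and Tet2 are filled without WT replicate 1.

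Markers of other cell types moved between the groups as well. Sums for gamma delta T cells (51.0 to 63.0 CPM in WT, 96.0 to 101 in KO; 4 of 6 tested genes higher), B cells (68.3 to 81.6 and 96.9 to 103; 2 of 4 higher, 1 lower), myeloid cells (6.46 to 7.04 and 11.7 to 12.8; 1 of 5 higher) and erythroid cells (42.4 to 45.6 and 60.3 to 64.1; both tested genes higher) did not overlap. Most of the gamma delta sum came from Trdc (41.2 ± 6.30 and 65.7 ± 2.35 CPM, SD, n = 3). Blk (log2 fold change -1.85) and Sox13 (-0.38) went the other way without passing. Both were at low levels, with WT means of 0.334 and 0.547 CPM. Every KO value of Blk lay below every WT value, and with quality weights 1 of the 6 genes was lower. Most of the B cell sum came from Ighm (54.3 ± 7.95 and 85.0 ± 2.38 CPM), and the lower gene was Ebf1 (log2 fold change -0.66, adjusted p = 0.0100). With no filter on low counts all 7 B cell markers were tested, 2 higher and 2 lower, with a median of -0.59. The myeloid call was Fcer1g (0.770 ± 0.285 and 4.27 ± 0.875 CPM), and Cd14 alone of the 5 had a lower fitted value (-0.61). The erythroid sum was almost all Car2 (43.2 ± 1.76 and 58.8 ± 2.76 CPM), with Hbb-bt at 0.425 ± 0.186 and 2.66 ± 1.78 CPM (SD, n = 3). NK markers ran from 109 to 302 and from 401 to 489 CPM, almost all from Xcl1, which activated T cells also make, and neither of 2 tested genes passed in edgeR (1 at an unadjusted p under 0.05; 1 with limma-voom). The NK receptor genes Ncr1, Klrb1c and Klra8 had no counts in any library. The CD8 genes overlapped, at 14.1 to 16.0 and 12.4 to 16.6 CPM. The part of these cells in the changes of Dnmt1, Uhrf1 and Tet3 was not tested.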

How the data were processed

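The authors deposited raw read counts for each gene, made with featureCounts 2.0.1 on GENCODE vM33 exons, per the file headers. The commands printed with their options set neither strand nor pairing, so antisense or overlapping transcripts cannot be told apart; aligner version and build: not given in the sources used here. Even numbers made up 65.6% to 67.7% of counts from 1 to 20, so counts rest on fewer fragments. The column of WT replicate 2 is entered under another unit in the record kept here and was checked to hold whole counts like the rest. Of 13 samples, 7 from other assays (ATAC-seq, H3K4me3 and Chaf1b ChIP-seq, and CUT&Tag for RORgt) were left out.

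Symbols were matched for 51948 of 56941 IDs. Libraries labelled KO were tested against those labelled WT in edgeR 4.0.16 (R 4.3.3): default filter on low counts, TMM factors (0.984 to 1.016), robust quasi-likelihood F-test without covariates, and Benjamini-Hochberg adjustment over 14681 genes with a threshold of 0.05. CPM use the TMM library sizes; SE was taken as the size of the log2 fold change divided by √F. Ratios and sums per library were compared with two-sided exact permutation tests. The test was checked on simulated counts. Alternatives were DESeq2 1.42.0, limma 3.58.1 (voom, with and without quality weights), RLE, upper-quartile and no factors, no filter, at least 1 CPM in 3 libraries, a replicate block, and leaving out each library. The members and gene lists were chosen with earlier results of these data known. All members are named; of related lists, the genes past the threshold or, where none passed, the 3 of highest mean CPM. Hells, Cdca7, Dppa3, Apex1, Lig3, Xrcc1, Mat2a and Chd4 were named after their values were seen. Some genes that the rule would name are not reported here.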

Additional observations from a re-analysis of the deposited data

How the results depend on the processing

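The fits of Dnmt1 (0.31 to 0.34 with any 1 library left out) and Uhrf1 (0.35 to 0.45) kept direction and call in all 15 other settings, and Tdg (0.06 to 0.08) kept its direction without passing. The log2 fold change of Tet3 was -0.25 and no longer passed with the replicate number as a block (adjusted p = 0.0580), and ran from -0.30 to -0.21 with a library left out. Dnmt3b passed with DESeq2 (-0.39), with no filter on low counts (-0.40) and with quality weights (-0.40), and ran from -0.48 to -0.30 with a library left out. Dnmt3a passed with quality weights (-0.16) and ran from -0.18 to -0.080, Tet2 from -0.15 to 0.033. Mbd2, at -0.004 in the fit of all libraries, turned to 0.013 with quality weights and ran from -0.017 to 0.0098. The members past the threshold numbered 5 with quality weights and 2 to 6 with a library left out, and all genes 1568 with no filter, 3277 with quality weights and 295 (without KO replicate 1) to 2961 (without WT replicate 1). Library totals without factors changed the split of all calls from 576 higher and 362 lower to 464 and 502. The cause of these changes was not tested, except that no filter tests more genes. The log2 difference in the ratio of Uhrf1 to Dnmt1 ran from 0.04 to 0.10 with any library left out. That of Uhrf1 to the S phase sum ran from -0.01 to 0.10, that of Dnmt1 to Dnmt3a from 0.38 to 0.52. With a library left out, 1 or 2 B cell markers were higher, and 1 erythroid marker was higher without WT replicate 2 or KO replicate 3.

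The replicate numbers did not pair the libraries: deviations from the group means of same-numbered libraries correlated at -0.04, -0.03 and 0.001 across genes. With the replicate block 671 genes passed, Dnmt1 and Uhrf1 among them, and of the member calls it ended that of Tet3. Among the 10 called genes of related lists, the block also ended the calls of Pclaf, Ehmt2, Kdm2b and Gatad2a; that of Ehmt2 was further lost with limma-voom and that of Gatad2a with library totals. Depth limits Tet1 (2 to 12 counts a library) far more than the other members.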

Other observations

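The promoter windows of these genes differ in the substrate of the enzymes they encode. The Tet2 window held 57 CG dinucleotides and the Dnmt3a windows of starts 1 and 2 held 46 and 47, where the median of all windows was 7. The Dnmt1 window of start 1 held 2. These are values of the reference sequence, and methylation of these windows was not measured in the libraries analysed here.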
